A study of Homo sapiens with 8 samples.

Results

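The cytosolic translation factors are the proteins that load an mRNA onto a ribosome, find its start codon, move the ribosome along the message and release the finished chain. A list of 44 such genes, of 86369 gene rows in the deposited count table, was followed through a knockdown of NAT10, and all 44 were found in the table. They were listed by name and function, but with earlier results of these data known. Of the 44, 40 passed the filter on low counts and were tested among 13840 genes.

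The cells were HepG2, an established line from a human hepatocellular carcinoma. The siNAT10 group received an siRNA that targets NAT10 and the siControl group a negative control siRNA, and total RNA was taken 2 days later from 4 replicates of each group. By the labels, batch 1 held replicates 1 and 2 of each group and batch 2 held replicates 3 and 4, and all libraries come from the same cell line. The labels do not say whether replicates were separate cultures, so that p-values measure the spread between these libraries, which may be technical. Libraries were made with a kit that primes on the poly(A) tail, so that a count stands for a transcript 3' end and does not grow with transcript length. Levels are given as CPM, counts scaled to a common total after adjustment of the library sizes, and fold changes as log2 of siNAT10 over siControl. In bulk RNA, fewer expressing cells and less RNA per cell cannot be told apart.

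Translation initiation starts when eIF2 carries the initiator tRNA to the small ribosomal subunit, together with eIF1, eIF1A, eIF3 and eIF5. The eIF4F complex, made of the cap-binding protein eIF4E, the scaffold eIF4G and the helicase eIF4A, brings this assembly to the capped mRNA. During elongation eEF1A delivers each aminoacyl-tRNA, eEF1B reloads eEF1A with GTP, and eEF2 moves the ribosome forward, until eRF1 and eRF3 end the chain at a stop codon. Many mRNAs of elongation factors, like those of ribosomal proteins, begin with a pyrimidine tract (TOP) that places their translation under mTOR and LARP1. NAT10 is the enzyme that acetylates cytidines in RNA, including ribosomal and transfer RNA.

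Library totals ran from 9731718 to 27977110 counts, and both of the shallowest libraries were siNAT10 of batch 2. NAT10 stood at 44.7, 39.2, 77.8 and 48.9 CPM in siControl replicates 1 to 4 and at 13.1, 12.2, 20.1 and 22.3 CPM in siNAT10, with no overlap. Its log2 fold change was -1.66 (SE 0.14, edgeR quasi-likelihood test, Benjamini-Hochberg adjusted p = 2.02e-05), and in batch 2 alone -1.58 (edgeR adjusted p = 0.0861). Of 7 liver markers, ALB (3232 to 4627 CPM), AFP (1265 to 1860 CPM), APOA1 (653 to 941 CPM), TTR (129 to 207 CPM) and HNF4A (242 to 476 CPM) were abundant in every library, while SERPINA1 stood at 1.70 to 13.2 CPM and APOB at 0 in 7 libraries and 0.328 CPM in the other. Of 6 markers of other cell types, PTPRC, CD3E, COL3A1 and KRT5 were at 0 in all 8 libraries, PECAM1 stood at 0 to 0.650 CPM and COL1A1 at 0 to 0.115 CPM.

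None of the 40 tested factors was called at an adjusted p under 0.05 by edgeR, against 2.28% of all tested genes (0.816% higher and 1.46% lower). At an unadjusted p under 0.05 there were 3 factors (7.5% of the tested factors, against 15.7% of all genes): EIF3I and EIF2S3 with lower values and EIF4G1 with higher values in siNAT10. DESeq2 called 1, EIF3I, and 4.33% of all genes. The fitted values split evenly, 20 higher and 20 lower, with a median log2 fold change of -0.0036 beside -0.0024 over all tested genes. Their size was also small, with a median absolute log2 fold change of 0.094 beside 0.157 over all genes. The tested factors were more abundant than most genes, with a median level of 96.8 CPM over the 40 beside 15.5 CPM over all tested genes. In 6 factors (15% of those tested, against 14.7% of all genes) every siNAT10 library lay beyond both siControl libraries of its batch. These were EIF1AX, EIF2S1 and EIF4H on the high side and EIF3D, EIF3I and EIF4G3 on the low side. EIF3D and EIF3I were also the ones whose groups did not overlap across both batches, a property of 5.4% of all genes.

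**Figure D1:**
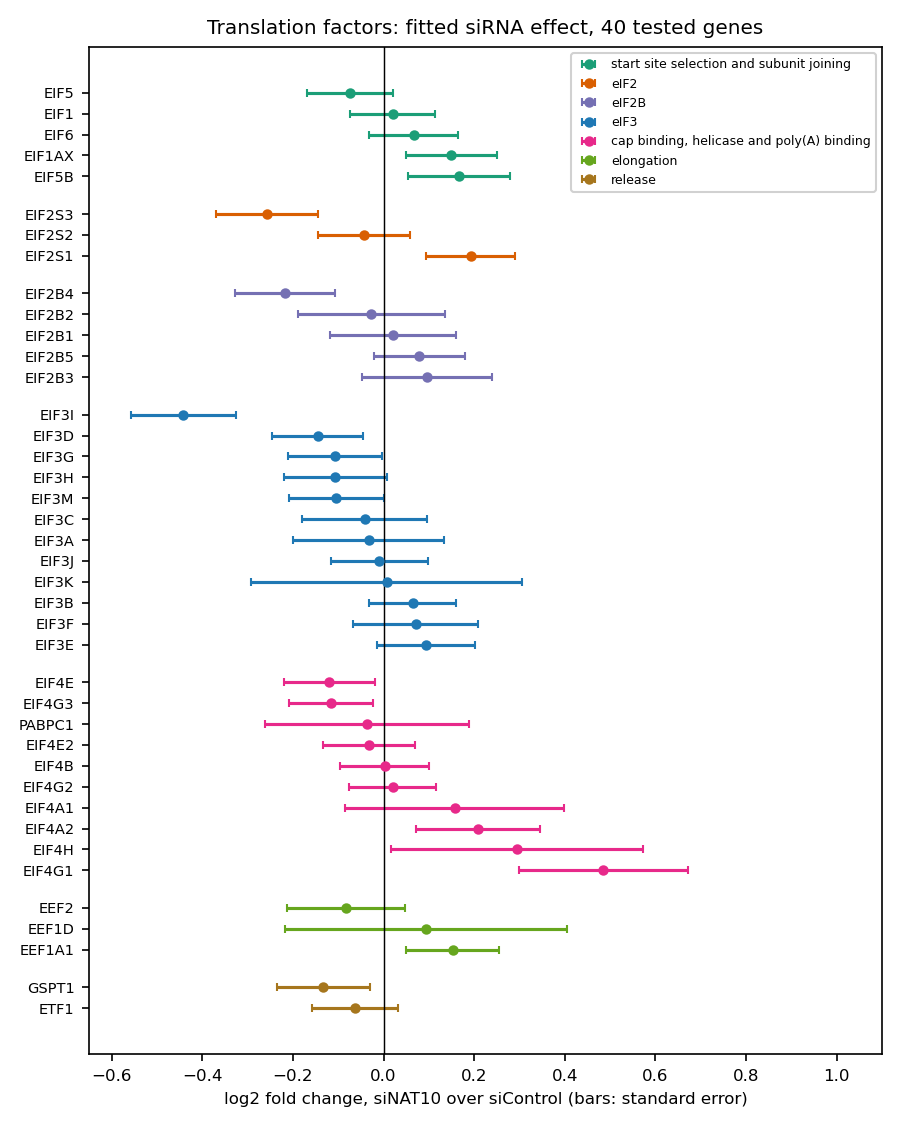
Fitted log2 fold change of siNAT10 over siControl (x axis) for the 40 tested translation factors, grouped by role. Points are estimates from 4 libraries a group and bars are standard errors; the values lie between -0.44 (EIF3I) and 0.49 (EIF4G1).

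The 5 start codon and subunit joining factors had log2 fold changes from -0.07 to 0.17, and 0 were called by edgeR or DESeq2. EIF1, which guards against wrong start codons, stood at 232 to 277 CPM and had a log2 fold change of 0.02, and EIF6, which keeps the large subunit apart until needed, stood at 439.6 to 527 CPM with 0.07. EIF5, the activating protein for the GTPase of eIF2, stood at 79.1 to 122 CPM with -0.07. EIF1AX, the X-linked copy of eIF1A, stood at 42.1, 38.8, 44.1 and 53.5 CPM in siControl and at 43.7, 42.7, 55.3 and 57.2 CPM in siNAT10, with a log2 fold change of 0.15 (SE 0.10). EIF5B, the GTPase that joins the subunits, had the largest value of this role. It stood at 241, 170.0, 272 and 248 CPM in siControl and at 225, 245, 291 and 282 CPM in siNAT10. Its groups overlapped, and its log2 fold change was 0.17 (SE 0.11, edgeR adjusted p = 0.518), but 0.07 without siControl replicate 2 and 0.27 without siControl replicate 1.

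None of the 3 subunits of eIF2 was called by edgeR or DESeq2, and 1 had an unadjusted p under 0.05 with edgeR. EIF2S3, the gamma subunit that binds GTP and the initiator tRNA (chromosome X, 24054946 to 24078810, plus strand, GRCh38), stood at 206, 175, 214 and 159 CPM in siControl and at 159, 169, 162 and 142 CPM in siNAT10. Of the siControl values, 3 were above every siNAT10 value, and siControl replicate 4 lay within the siNAT10 range. The log2 fold change was -0.26 (SE 0.11, unadjusted p = 0.0351, edgeR adjusted p = 0.272). With the log2 total count of each library as a covariate, and likewise without siControl replicate 3, it was -0.15. EIF2S1, the alpha subunit whose phosphorylation slows initiation, stood at 37.4, 38.7, 53.4 and 62.1 CPM in siControl and at 47.2, 42.8, 62.1 and 65.3 CPM in siNAT10. Each siNAT10 library was above the siControl libraries of its own batch, and the log2 fold change was 0.19 (SE 0.099, edgeR adjusted p = 0.366). EIF2S2, the beta subunit, was at 357 to 438 CPM with a log2 fold change of -0.04.

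The 5 subunits of eIF2B, the exchange factor that reloads eIF2 with GTP, were less abundant, and their mean levels were between 17.2 CPM (EIF2B3) and 108 CPM (EIF2B5). EIF2B4 had the largest value. It stood at 65.3, 60.1, 52.4 and 59.8 CPM in siControl and at 45.4, 48.4, 54.3 and 57.1 CPM in siNAT10. The siNAT10 libraries were below both controls in batch 1, but in batch 2 they lay between them, and the log2 fold change was -0.22 (SE 0.11, edgeR adjusted p = 0.354). The other 4 subunits had log2 fold changes from -0.03 (EIF2B2) to 0.10 (EIF2B3).

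eIF3, the scaffold of the initiation assembly, has 13 subunit genes in the list, of which 12 were tested and 8 of these had lower values in siNAT10. The median log2 fold change of the 12 was -0.04, and EIF3I and EIF3D had the lowest values. EIF3I, a subunit built of WD repeats (chromosome 1, 32221077 to 32245397, plus strand), stood at 104, 91.1, 111 and 77.8 CPM in siControl and at 75.5, 76.3, 62.4 and 69.1 CPM in siNAT10. Every siNAT10 library was below every siControl library, although siControl replicate 4 and siNAT10 replicate 2 were close. The means were 96.0 ± 14.6 CPM (SD, n = 4) and 70.8 ± 6.46 CPM (SD, n = 4). The log2 fold change was -0.44 (SE 0.12, unadjusted p = 0.00147, edgeR adjusted p = 0.0559), just outside the threshold over all 13840 genes. The call depended on the fit: the adjusted p was 0.0203 with DESeq2, 0.0121 with no filter on low counts, 0.0451 with a replicate block and 0.0388 without siControl replicate 4, within a range of 0.0121 to 0.649 over all alternatives. The log2 fold change was -0.36 in batch 1 alone and -0.52 in batch 2 alone.

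EIF3D, the subunit that can itself bind the cap of some mRNAs, stood at 333, 323, 388 and 315 CPM in siControl and at 310.1, 303, 301 and 313 CPM in siNAT10. The groups did not overlap, but siControl replicate 4 was above siNAT10 replicate 4 by a narrow margin, and the log2 fold change was -0.15 (SE 0.10, edgeR adjusted p = 0.524). The core subunits EIF3A (99.6 to 182 CPM) and EIF3B (249 to 291 CPM) had log2 fold changes of -0.03 and 0.06. EIF3G, EIF3H and EIF3M, at mean levels of 75.2, 90.03 and 74.7 CPM, had log2 fold changes of -0.11, -0.11 and -0.10. EIF3E (0.09), EIF3F (0.07), EIF3J (-0.01), EIF3C (-0.04) and EIF3K (0.01) completed the complex, the last at 0.782 to 3.44 CPM.

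The cap-binding and scanning factors held the highest fitted values of the list. EIF4G1, the main scaffold of eIF4F (chromosome 3, 184314495 to 184335358, plus strand), stood at 551, 863, 604 and 1059 CPM in siControl and at 1079.8, 676, 1213 and 1411 CPM in siNAT10. The ranges overlapped: siNAT10 replicate 2 was lower than siControl replicates 2 and 4. The means were 769 ± 236 CPM (SD, n = 4) and 1095 ± 311 CPM (SD, n = 4), and the log2 fold change was 0.49 (SE 0.19, unadjusted p = 0.0191, edgeR adjusted p = 0.205). It was 0.31 in batch 1 alone, 0.66 in batch 2 alone and 0.32 without siControl replicate 3. With no filter on low counts the edgeR adjusted p was 0.00149, within a range of 0.00149 to 0.625 over all alternatives. The fit with no filter took in 27941 genes, and its log2 fold change for EIF4G1 was 0.48, so the p moved without the effect. Why the p moved was not tested.

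The level of EIF4G1 tended to be lower in deeper libraries. This was the strongest of 40 such relations, and it did not pass the adjusted threshold. Across the 8 libraries the log2 level and the log2 total count had a Pearson r of -0.926 (exact permutation p = 0.00164, adjusted over 40 such relations 0.0655) and a Spearman rho of -0.857 (exact permutation p = 0.0107, adjusted 0.214). Without the libraries farthest from the median depth, siNAT10 replicates 2 and 4, r was -0.919. These permutations exchange all libraries freely, whereas depth was tied to batch and group, so the p does not tell depth apart from them. The order of the levels was the reverse of the order of the depths within the 4 libraries of siControl and of siNAT10 and within batch 2. It was not so in batch 1, where siNAT10 replicates 1 and 2 were each deeper and higher than siControl replicates 2 and 1. Groups and batches of 4 libraries are too small for a value of r. With the log2 total count as a covariate, an alternative chosen after the data had been seen, the siRNA log2 fold change of EIF4G1 was 0.24 (edgeR adjusted p = 0.295). Of the 40 factors, 0 had a relation to depth that passed the adjusted threshold, and 23 had a negative r. That fit cannot separate depth from batch and group, to which depth was tied. The part of depth in the EIF4G1 difference was not tested.

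**Figure D2:**
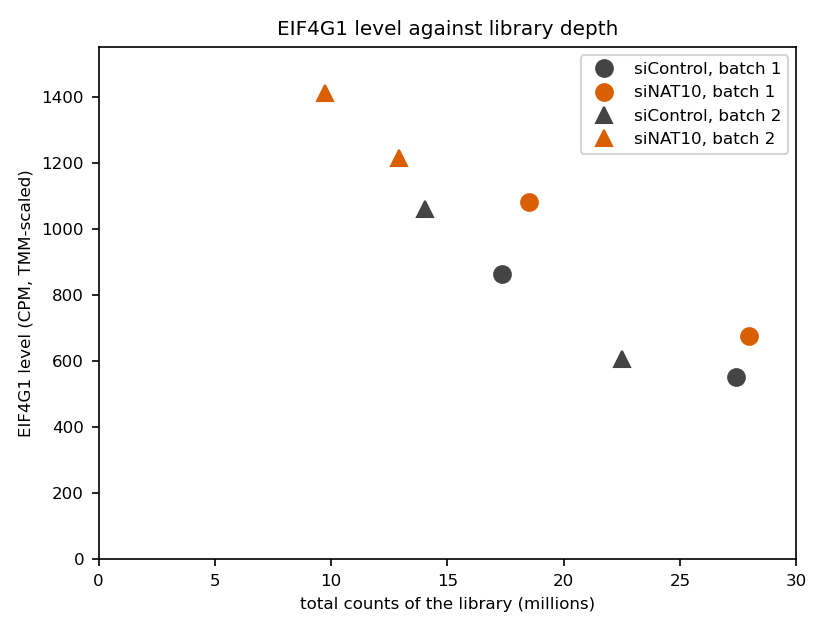
Level of EIF4G1 in CPM (y axis) against the total counts of each library (x axis), 1 point per library, with siControl in grey, siNAT10 in orange, circles for batch 1 and triangles for batch 2. The shallowest library (siNAT10 replicate 4) has the highest level, 1411 CPM. Levels tend to be lower in deeper libraries, though not in strict order within batch 1. Over the 8 libraries r was -0.926 (exact permutation p adjusted over 40 relations = 0.0655).

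Neither of the other scaffolds was called by edgeR or DESeq2 or had an unadjusted edgeR p under 0.05. EIF4G2, a relative that lacks the eIF4E-binding part, was among the 3 most abundant factors, at 759.8, 821, 732 and 787 CPM in siControl and 804, 782, 797 and 761 CPM in siNAT10. The groups overlapped, and its log2 fold change was 0.02 (SE 0.096). EIF4G3 stood at 63.0, 62.2, 51.0 and 49.4 CPM in siControl and at 59.1, 59.3, 45.0 and 45.4 CPM in siNAT10, below both controls of its batch each time, with a log2 fold change of -0.12 (SE 0.092, edgeR adjusted p = 0.601).

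EIF4E, which binds the cap, stood at 34.8 to 43.1 CPM with a log2 fold change of -0.12, and EIF4E2, a weaker cap binder linked to repression, at 82.8 to 149.7 CPM with -0.03. EIF4A2, 1 of the helicases, stood at 295, 338, 453 and 646 CPM in siControl and at 476, 357, 599 and 515 CPM in siNAT10. Its siNAT10 values exceeded both controls in batch 1 and lay between them in batch 2, and the log2 fold change was 0.21 (SE 0.14, edgeR adjusted p = 0.505). It was 0.13 without siControl replicate 1, 0.08 without siNAT10 replicate 1 and 0.36 without siControl replicate 4. EIF4H, a helper of the helicase, had a log2 fold change of 0.29 (SE 0.28, edgeR adjusted p = 0.668; 0.19 without siControl replicate 4) on a very low level: 1.27, 1.15, 2.01 and 1.37 CPM in siControl and 1.48, 1.43, 2.20 and 2.15 CPM in siNAT10. EIF4A1 (3.34 to 9.48 CPM) and EIF4B (40.7 to 46.8 CPM) had log2 fold changes of 0.16 and 0.00.

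PABPC1, the poly(A)-binding protein that bridges the tail to eIF4G, had a wide spread among the siNAT10 libraries. It stood at 318, 329.7, 284 and 272 CPM in siControl and at 238, 289, 163 and 489 CPM in siNAT10. The lowest and the highest of all 8 values were the siNAT10 libraries of batch 2, and the log2 fold change was -0.04 (SE 0.23, edgeR adjusted p = 0.963).

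**Figure D3:**
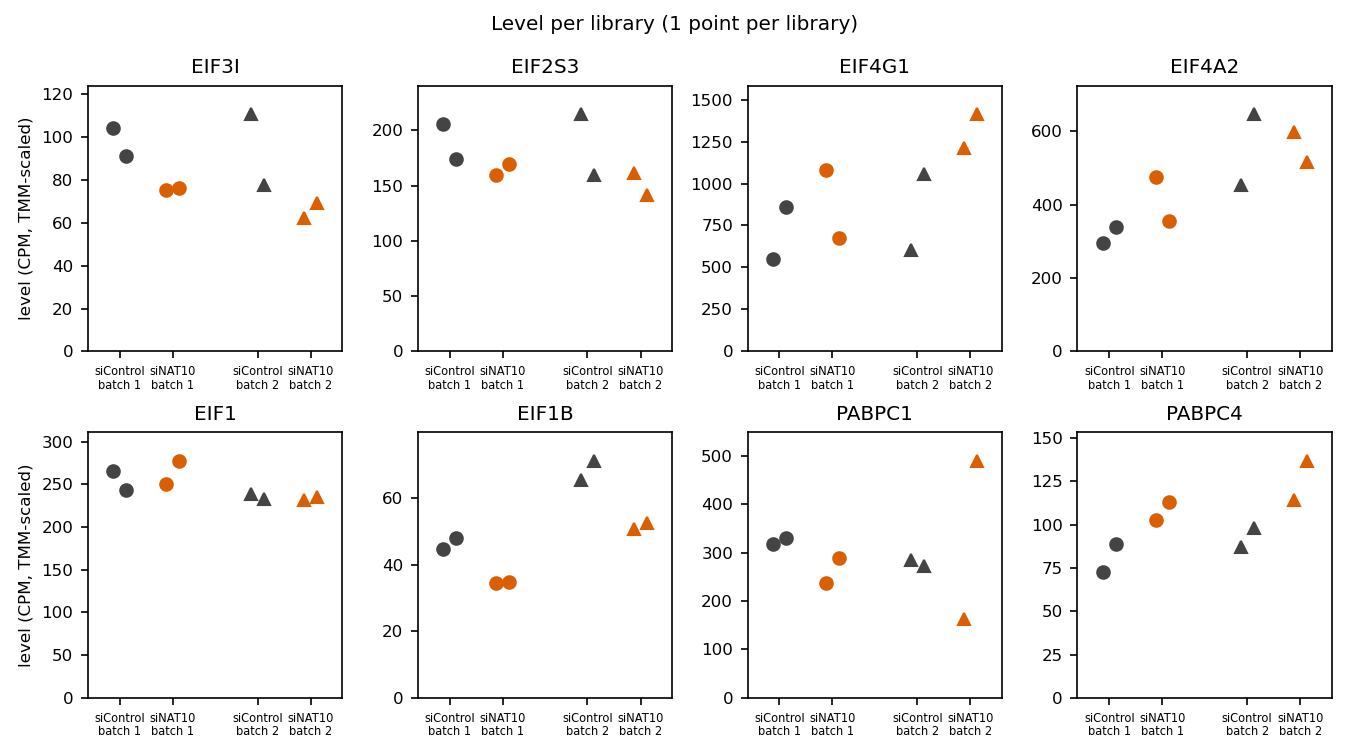
Level in CPM (y axis) per library for 6 listed factors and the related genes EIF1B and PABPC4, by group and batch (x axis); each point is 1 library, siControl in grey and siNAT10 in orange. EIF3I, EIF1B and PABPC4 separate the groups within each batch, EIF4G1 and EIF2S3 overlap, and PABPC1 in siNAT10 spans 163 to 489 CPM.

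Of the elongation factors, 3 of 6 were tested. EEF2, the translocase, was the most abundant listed factor and by itself made up 29.6% to 40.9% of the summed CPM of the 44. It stood at 4018, 3411, 4472 and 4156 CPM in siControl and at 4144, 3426, 4452 and 3095 CPM in siNAT10. The groups overlapped throughout, siNAT10 replicate 4 was the lowest library, and the log2 fold change was -0.08 (SE 0.13, edgeR adjusted p = 0.817). It turned to 0.04 without that library. EEF1A1, the carrier of aminoacyl-tRNA, stood at 46.9, 38.4, 50.2 and 45.5 CPM in siControl and at 47.2, 51.4, 49.5 and 52.8 CPM in siNAT10. Its log2 fold change was 0.15 (SE 0.10, edgeR adjusted p = 0.517), and 0.09 without siControl replicate 2. Although EEF1A1 is known as one of the most abundant mRNAs of growing cells, its row averaged only 47.7 CPM, beside 3897 CPM for EEF2.

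Both release factors, ETF1 (eRF1, which reads the stop codon) and GSPT1 (eRF3, its GTPase partner), had slightly lower values. GSPT1 stood at 138, 158, 154 and 152 CPM in siControl and at 121, 130.0, 137 and 164 CPM in siNAT10. The groups overlapped, since siNAT10 replicate 4 was the highest of the 8, and the log2 fold change was -0.13 (SE 0.10, edgeR adjusted p = 0.583). It was -0.07 without siControl replicate 2 and -0.20 without siNAT10 replicate 4. ETF1, at 147 to 175 CPM, had a log2 fold change of -0.06.

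Rows near 0 were found for several factors with basic roles in translation. Under 10 CPM on average were 8 factors: EIF3K (2.37 CPM), EIF3L (0.031), EIF4A1 (4.91), EIF4H (1.63), EIF5A (0.0045), EEF1B2 (0.13), EEF1D (3.12) and EEF1G (0.11). The 4 untested factors are all among them, and they were the factors under 1 CPM. Of the 20038 protein-coding genes in the table, 47.8% were under 1 CPM. Rows at 0 in all 8 libraries also occurred among the related translation genes described below, for EIF4A3, CTIF, EEFSEC and GSPT2. Over all 8 libraries together EIF5A, the factor that helps ribosomes past difficult peptide bonds, had 1 count, in siControl replicate 1. EIF3L had 7 counts, found only in siControl replicate 1 (0.0727 CPM) and siNAT10 replicate 2 (0.174 CPM). EEF1G, the gamma subunit of eEF1B, had 16 counts and stood at 0.145, 0.0575, 0.234 and 0.0723 CPM in siControl and 0.109, 0, 0.157 and 0.0978 CPM in siNAT10. EEF1B2, its beta subunit, had 20 counts, at 0.109, 0.115, 0.0937 and 0.0723 CPM in siControl and 0.274, 0.139, 0.0784 and 0.196 CPM in siNAT10. Most of these values are at or below the level of 3 counts, which was 0.104 to 0.293 CPM depending on the library, so no fold change is given for the 4.

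Rows of same-named copies held far more counts than the gene's own row in some of these cases. GENCODE 44 lists 165 genes named as copies of 25 of the factors, most of them processed pseudogenes. The clearest case was EEF1B2 (chromosome 2, 206159585 to 206162928, plus strand), where the copies held 322790 counts, 99.994% of the total for gene and copies. EEF1B2P3 (chromosome X, 24788392 to 24789069, minus strand) alone held 266990 and EEF1B2P2 (chromosome 5, 68159218 to 68159893, minus strand) held 54258. The last 200 bases of the EEF1B2 transcript match EEF1B2P3 at 197 of 200 bases, EEF1B2P1 on chromosome 15 at 195 of 200 and EEF1B2P2 at 192 of 199 aligned bases. To show how little separates them, 30 coding bases from the last exon of EEF1B2 are printed with the matching bases of the copies, from the GRCh38 genome, with bases that differ from EEF1B2 in capitals:
EEF1B2, chr2:206162824-206162853, plus strand: atcactgcttttgaggactatgtgcagtcc
EEF1B2P3, chrX:24788422-24788451, minus strand: atcactgcttttgaggactaCgtgcagtcc
EEF1B2P2, chr5:68159248-68159277, minus strand: atcactgcttttgaggactatgtgcagtcc
EEF1B2P1, chr15:52505804-52505833, plus strand: atcactgcGtttgaggactatgtgcagCcc

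Counted from 1 at the 5' end of the printed bases, EEF1B2P3 carries T21C, EEF1B2P1 carries T9G and T28C, and EEF1B2P2 has 0 differences in this stretch. The copy with the most counts, EEF1B2P3, is not the one that matches these 30 bases exactly. Over the last 200 transcript bases, however, it was closer to EEF1B2 (98.5% identity) than EEF1B2P1 (97.5%) or EEF1B2P2 (96.5%). EEF1B2P3 stood at 1811, 1571, 2195 and 1578 CPM in siControl and at 1681, 1849, 1666 and 1566 CPM in siNAT10. These levels would put it behind EEF2 alone among the 44 rows, and its groups overlapped. With the counts of all copies added, EEF1B2 had a mean of 2106 CPM and a log2 fold change of -0.08 (SE 0.12, edgeR adjusted p = 0.798).

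EIF5A showed the same pattern with 1 copy. EIF5AL1 (chromosome 10, 79512533 to 79516440, plus strand), annotated as protein coding, held 37146 counts against 1 for EIF5A, and stood at 233, 289.7, 213 and 251 CPM in siControl and 214, 260.4, 279 and 266 CPM in siNAT10. With copies added, EIF5A had a mean of 251 CPM and a log2 fold change of 0.05 (SE 0.12, edgeR adjusted p = 0.892). Neither gene separated the groups once the copies were counted with it.

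The share of counts in copies was above 10% for 8 factors and under 1% for 14 of the 25 with a named copy. EEF1D, the delta subunit of eEF1B, had 455 counts of its own and 941 in copies (67.4%), mainly EEF1DP7 (831). Its own row stood at 1.34, 2.99, 4.97 and 3.18 CPM in siControl and at 3.28, 2.71, 4.55 and 1.96 CPM in siNAT10. The values overlapped, and the log2 fold change of 0.09 (SE 0.31) became -0.02 with copies added. EIF4B, which stimulates the helicase, had 45.1% in copies, mainly EIF4BP3 (5240 counts), and its log2 fold change of 0.00 became -0.11 (SE 0.099, edgeR adjusted p = 0.664). For EIF3K the share was 24.0%, for EEF1A1 15.8% over 49 copies, for EIF3C 10.7% and for PABPC1 10.5%. The EIF3C share lies in EIF3CL, a protein-coding duplicate whose last 200 transcript bases are identical to those of EIF3C. The PABPC1 share lies almost wholly in PABPC1L (5169 of 5178 counts), which is a separate gene and not a processed copy. How reads that fit several places were counted is not given in the sources used here, so levels of these rows are uncertain.

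**Figure D4:**
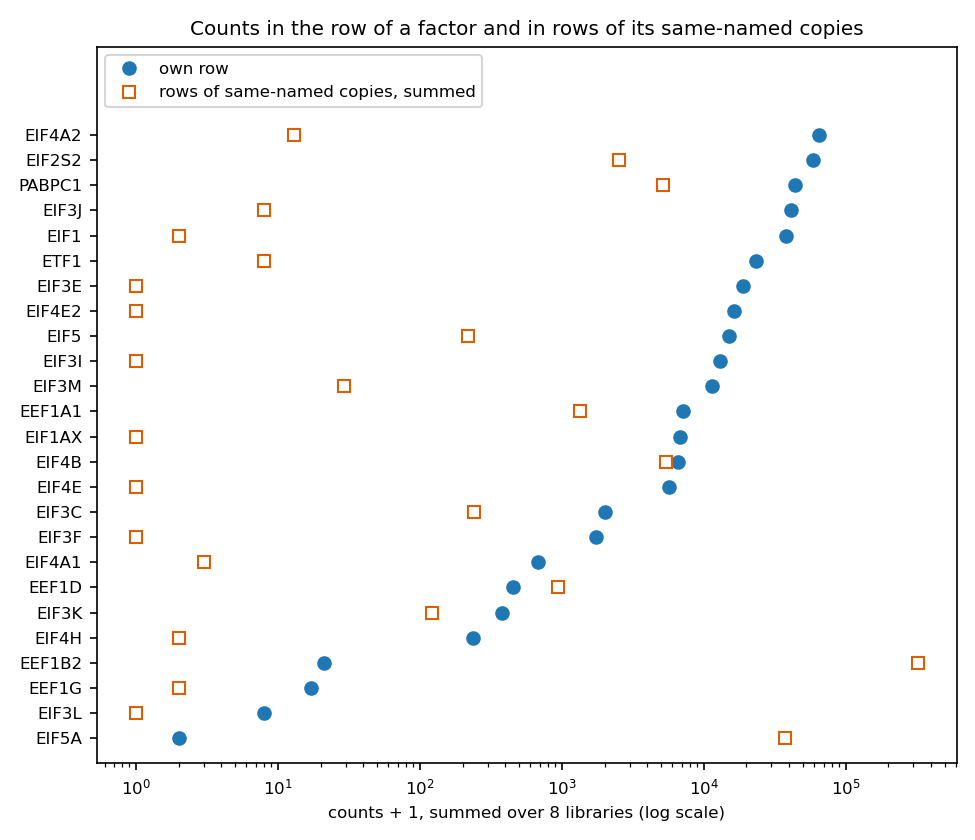
Counts summed over 8 libraries, plus 1, on a log x axis, for the 25 factors with a same-named copy (y axis); filled circles are the gene's own row and open squares the sum of its copies. EEF1B2, EIF5A and EEF1D have more counts in copies than in their own rows.

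For the other low rows the named copies held few counts: 0 for EIF3L, 2 for EIF4A1, 1 for EIF4H and 1 for EEF1G. Features of these rows were therefore listed after their values had been seen. A match of the last 200 transcript bases elsewhere in the genome, or in a transcript of another gene away from the locus, at 95% identity or more over at least 90% of them, was found for 5 of the 8 low factors (EIF4H, EIF5A, EEF1B2, EEF1D and EEF1G) and for 3 of the 36 others (EIF3C, EIF4B and PABPC1). Another gene annotated on the same strand over the 3' end was found for 3 of 8 (EIF3L, EIF4A1 and EEF1G) and 2 of 36 (EIF6 and PABPC1). Beside EIF3L, the gene ENSG00000279738 held 2.59 to 5.48 CPM. The remaining one, EIF3K, lies among genes that are themselves near 0: 9 of its 10 protein-coding neighbours were under 1 CPM. At least 8 of 10 such neighbours were found for 4 of 8 low factors (EIF3K, EIF5A, EEF1B2 and EEF1D) and for 1 of 36 others (EIF3F), where 3.74% of all protein-coding genes at 10 CPM or more have them. All 8 low factors had at least 1 of these features, as did 5 of the 36 others. The features were chosen from these same rows, and the neighbour feature rests on levels, so the comparison cannot show an association. Matches of the last 200 coding bases elsewhere in the genome, by the same limits, were not among these features. They were found for 17 of the 44 factors, including 7 of the 8 low ones, with 4 matches for EIF4A1 and 1 for EIF3L. EEF1A1, not a low row, had 8 such matches. Whether any of these features or matches produced the low rows was not tested.

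More of the factors were called between batches than between siRNA groups. Between batch 2 and batch 1, 8 of the 40 factors were called (20%, against 25.3% of all tested genes, so the share is near the background). Of these, 7 were higher in batch 2, against 13% of all genes, and 1 was lower, against 12.2%. EIF3J, a loosely attached eIF3 subunit, rose most. It stood at 199, 225, 240.4 and 211 CPM in the libraries of batch 1 (siControl, then siNAT10) and at 341, 422, 359 and 348 CPM in those of batch 2. Every batch 2 library was above every batch 1 library, and the log2 difference was 0.75 (SE 0.11, edgeR adjusted p = 0.000131). EIF4E2 rose by 0.63 on the log2 scale, EIF4A2 by 0.61, EIF2S1 by 0.55, EIF5 by 0.39, EIF3E by 0.38 and EIF1AX by 0.32, with edgeR adjusted p-values from 0.000389 to 0.0263. EIF4G3 was lower in batch 2 by a log2 difference of -0.35 (edgeR adjusted p = 0.0106). The labels give the batch numbers only. Depth differed with them, at 17347226 to 27977110 counts in batch 1 and 9731718 to 22512520 in batch 2, and the log2 level of several of these factors moved with log2 depth over the 8 libraries (r of -0.805 for EIF1AX, -0.789 for EIF2S1, -0.735 for EIF4A2, -0.714 for EIF3J and 0.772 for EIF4G3, none past the threshold after adjustment over 40 relations). The part of depth in the batch differences was not tested. The siRNA effect itself was not shown to differ between batches: the interaction was called for 0 of 40 factors by edgeR and by DESeq2, with 0 at an unadjusted p under 0.05 beside 3.04% of all genes.

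**Figure D5:**
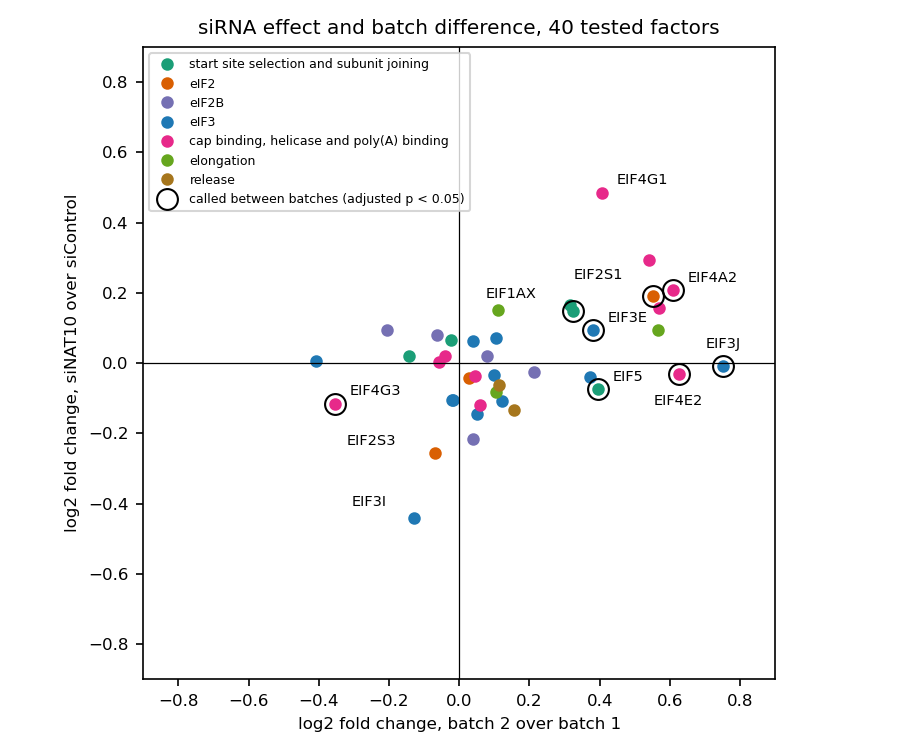
Log2 difference of batch 2 over batch 1 (x axis) against log2 fold change of siNAT10 over siControl (y axis) for the 40 tested factors, coloured by role; rings mark the 8 called between batches. The axes have the same scale, and the points spread further along the batch axis, up to 0.75 for EIF3J.

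The summed level of the 44 factors was 9951, 9520, 10944 and 11154 CPM in siControl and 10605, 9430, 11382 and 10455 CPM in siNAT10. The groups overlapped in both batches. Without EEF2 the sum was 5933 to 7360 CPM.

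Genes around the factors were taken from a second list of 60 regulators, paralogs and modifying enzymes, of which 52 were tested and 2 called by edgeR (3.85%, against 2.28% of all genes). Both were paralogs of listed factors. EIF1B (chromosome 3, 40309707 to 40312424, plus strand), a close relative of EIF1, stood at 44.7, 48.1, 65.3 and 71.1 CPM in siControl and at 34.6, 34.7, 50.7 and 52.6 CPM in siNAT10. In each batch both siNAT10 libraries were below both controls. Its means were 57.3 ± 12.9 CPM (SD, n = 4) and 43.1 ± 9.85 CPM (SD, n = 4), and it fell by 0.41 on the log2 scale (SE 0.095, edgeR adjusted p = 0.0311), while EIF1 had a log2 fold change of 0.02. Another gene, ENSG00000291315, is annotated on the same strand over the 3' end of EIF1B.

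PABPC4 (chromosome 1, 39560709 to 39576790, minus strand), a relative of PABPC1, stood at 72.8, 88.6, 87.0 and 97.8 CPM in siControl and at 103, 113, 114 and 137 CPM in siNAT10, with no overlap. The means were 86.6 ± 10.3 CPM (SD, n = 4) and 117 ± 14.4 CPM (SD, n = 4), and it rose by 0.43 on the log2 scale (SE 0.11, edgeR adjusted p = 0.0415). Both calls were close to the threshold. EIF1B was no longer called without siControl replicate 1, 2 or 4 or siNAT10 replicate 1, 2 or 3 (edgeR adjusted p of 0.0859 to 0.113), and PABPC4 was no longer called without any 1 of the 8 libraries (0.0524 to 0.161), while their log2 fold changes stayed between -0.43 and -0.38 and between 0.38 and 0.49. The EIF1B call was also lost with library size alone (edgeR adjusted p = 0.0691), and the PABPC4 call with the log2 total count as a covariate (0.0628).

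The remaining related genes were not called by edgeR. A total of 8 of the 52 (15.4%, against 15.7% of all genes) had an unadjusted p under 0.05. Among them the kinase RPS6KB1, which acts downstream of mTOR, stood at 19.5 ± 4.38 CPM in siControl and 25.9 ± 4.08 CPM in siNAT10 (SD, n = 4), and its log2 fold change was 0.41 (edgeR adjusted p = 0.0791). The eIF2 kinase EIF2AK3 (PERK), which answers stress of the endoplasmic reticulum, stood at 33.4 ± 3.94 CPM and 44.6 ± 9.12 CPM (SD, n = 4), and its log2 fold change was 0.41 (edgeR adjusted p = 0.0944). DESeq2 called both of these beside EIF1B and PABPC4, and the replicate block in place of batch added EIF2AK3 to the edgeR calls. None of the 11 tested regulators of cap binding, 9 eIF2 kinases and phosphatase regulators, 17 elongation genes or 6 release and recycling genes was called by edgeR, and these held 5 of the 8 genes at an unadjusted p under 0.05.

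The TOP mRNAs gave no call either. Of 10 listed factors with a known TOP tract 8 were tested, 0 were called by edgeR or DESeq2 (2.28% and 4.33% of all genes) and 0 had an unadjusted p under 0.05 (15.7% of all genes), and the median log2 fold change was 0.04, beside -0.0024 over all genes. Those not tested were EEF1B2 and EEF1G, with rows near 0. Copies held 67.4% of the counts for EEF1D, 45.1% for EIF4B, 15.8% for EEF1A1 and 10.5% for PABPC1. The levels of these rows are uncertain, so the lack of calls does not show that TOP mRNAs were unchanged. Of 75 tested cytosolic ribosomal protein genes 0 were called by edgeR or DESeq2 and 4 had an unadjusted p under 0.05, which is 5.33% beside the same 15.7%. Of the 75 values 56 were lower, with a median log2 fold change of -0.07 beside the same -0.0024 over all genes. With library size alone in place of the scaled sizes, 25 of the 40 factors had higher values and 15 lower, in place of 20 and 20. The directions of the ribosomal protein genes were not examined under that scaling.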

How the data were processed

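The authors deposited whole-number counts per gene for 8 libraries, aligned to GRCh38 with STAR 2.7.9a and counted with featureCounts after trimming with Trim Galore 0.6.10 and cutadapt 3.5, per the submitters' processing notes. How featureCounts was set for strand and for reads that fit several places or genes, and on which annotation, is not given in the sources used here. The labels name a count matrix with a prefix that the deposited table's name lacks, and the columns were matched by the names the labels give on the view that both are the same table. The kit is named as the forward version in the series text and as the reverse version in the sample protocol. The labels name no molecular identifiers, so depth limits cover counting error only.

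Of the 86369 identifiers, 61458 matched GENCODE 44, which gave symbols, positions and 3' ends. Transcript ends were searched in the genome with BLAST 2.17.0, which finds unspliced copies in the genome, and in GENCODE 44 transcripts, which hold spliced ones. Tests used edgeR 4.0.16 under R 4.3.3: filterByExpr at a minimum count of 10, TMM scaling, and the quasi-likelihood F test with batch and siRNA as terms, adjusted over all 13840 genes. CPM was computed from TMM-scaled library sizes. Standard errors came from the F statistic. The scripts were tested on simulated counts. These held no batch effect and larger log2 fold changes than those of the factors, so they do not show how differences of the size seen here are recovered.

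The factors, the related genes and the tests were chosen with earlier results of these data known. Factors given with every library's value are those with an unadjusted p under 0.05, the 3 highest and 3 lowest log2 fold changes and mean CPM, the largest absolute log2 fold change in each role, rows under 1 CPM, and rows with more counts in copies; others were added after their values had been seen.

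The groups have replicate numbers in common, and an alternative fit took the numbers to pair the libraries. Same-numbered libraries deviated together from their group means (correlation across genes of 0.44, 0.43, 0.51 and 0.42 for replicates 1 to 4). They also shared a batch, and batch was not removed first. These correlations therefore cannot tell pairing by number from a shared batch, and the replicate block rests on the numbers alone. Alternatives were DESeq2 1.42.0, library size alone, RLE size factors, no filter, a mean of at least 10 counts, copies added to their factor, no batch term, a replicate block, each batch alone, each library left out, and, added after seeing the data, the log2 total count as a covariate.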

Additional observations from a re-analysis of the deposited data

Results flagged for a closer look

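In 3 of the 95 groups of 4 libraries examined, 1 library lay far from the other 3 by Dixon's test, where chance gives about 4.75. All 3 are rows near 0 in which a single library had any count: EIF3L in siControl replicate 1 (0.0727 CPM) and in siNAT10 replicate 2 (0.174 CPM), and EIF5A in siControl replicate 1 (0.0364 CPM, which is 1 count). The groups were the 44 factors, EIF1B, PABPC4, EEF1B2P3 and EIF5AL1 in siControl and in siNAT10, without EIF5A in siNAT10, which was at 0 in all 4 libraries.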

How the results depend on the processing

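The count of genes called in the whole table was 315 and depended on the fit: it was 599 with DESeq2, 595 with no filter on low counts, 15 with no batch term, 173 in batch 1 alone and 0 in batch 2 alone by edgeR (where 946 genes had an unadjusted p under 0.05), and 75 to 286 with 1 library left out. With the replicate number as a block it was 454.

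Of the listed factors, 0 were called with batch as a term, 1 with DESeq2 (EIF3I), 2 with no filter (EIF3I and EIF4G1), 1 with the replicate block (EIF3I), and 0 to 1 with 1 library left out, the 1 being EIF3I without siControl replicate 4. Their median log2 fold change moved from -0.0036 to 0.034 with library size alone and ran from -0.02 to 0.03 with 1 library left out. Related genes called were 2, and became 4 with DESeq2, 1 with library size alone, 1 with the depth covariate, 0 with no batch term, 0 in batch 1 alone, 0 in batch 2 alone, and 0 to 1 with 1 library left out. The log2 fold change of NAT10 in batch 2 alone was -1.58 (edgeR adjusted p = 0.0861). The replicate block changed no other call among the factors and added EIF2AK3 among the related genes, which made 3. The cause of these shifts was not tested. The fits that leave some libraries out also had fewer libraries.

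Signs changed for values that were never called. EIF4G2 was at -0.0038 with the depth covariate. EEF2 was at 0.038 without siNAT10 replicate 4 and at 0.029 in batch 1 alone, and ran from -0.16 to 0.038 with 1 library left out. EEF1D was at -0.023 with copies added and at -0.32 in batch 2 alone. With 1 library left out it ran from -0.19 to 0.36, and was below 0 without siControl replicate 1 and without siNAT10 replicates 1 or 3. Counts called between batches for the factors stayed between 7 and 10. The interaction remained at 0 called by edgeR and DESeq2 under every alternative run for it, with 0 to 5 factors at an unadjusted p under 0.05.

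At 9731718 to 27977110 counts a library, a level of 3 counts corresponds to 0.104 to 0.293 CPM, which limits EIF5A, EIF3L, EEF1B2 and EEF1G.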
